A study of Mus musculus with 8 samples.

Results

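G6pd2 and Ldhal6b are mouse genes for metabolic enzymes that have no introns, and both are known mainly from the male germ line. Their signals are described here in whole hearts of male mice after aortic banding or sham surgery. Each was measured by 1 probe printed as 20 spots per array: G6pd2 by CUST_15_PI419532418 (accession NM_019468.2) and Ldhal6b by CUST_5_PI419532418 (NM_175349.2). They are 2 of 15 named genes that the array prints in 20 copies, among 60915 noncontrol probes in all. They were chosen by identity, though earlier results of these data were known.

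Glucose-6-phosphate dehydrogenase commits glucose to the pentose phosphate pathway and supplies NADPH, which cells use for lipid synthesis and to keep glutathione reduced. The housekeeping enzyme is encoded by the X-linked gene G6pdx, and G6pd2 is an autosomal copy of it that arose by reverse transcription of its mRNA and is expressed in spermatids. Lactate dehydrogenase interconverts pyruvate and lactate, with Ldhb as the main subunit of heart muscle, Ldha of skeletal muscle and Ldhc of sperm. Ldhal6b resembles Ldha, and its human counterpart is known as a testis gene. Such copies left the promoter of the parent gene behind, so where they are transcribed depends on the sequence into which they were inserted.

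The arrays compared 4 wild-type C57BL/6J mice with a banded aorta and 4 wild-type C57BL/6J mice with a sham operation, each mouse on its own one-colour (Cy3) Agilent array. All were males of 8 to 10 weeks and 24 to 26 g. The descending aorta of the banded mice was tied with 7-0 silk against a bent 26-gauge needle that was then withdrawn. Banding raises the pressure load on the heart, which then enlarges. Total RNA came from the heart 4 weeks after surgery and was labelled by random priming, with 1 μg of labelled cRNA on each array.

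The sequence upstream of each gene is shown first, because a gene copied from mRNA depends on the sequence around its new place. All 3 windows hold the 250 bases before the annotated start, on the strand of the gene, from RefSeq on GRCm38.p6. They cover G6pd2 at chr5:61808593-61808842 on the plus strand, its parent G6pdx at chrX:74428881-74429130 on the minus strand, and Ldhal6b at chr17:5418768-5419017 on the minus strand. Capitals mark the end of G6pd2 that belongs to a run shared with the G6pdx transcript, the GC box GGGCGG in G6pdx, and the CCAAT and TATAAA matches on either strand in Ldhal6b.
G6pd2: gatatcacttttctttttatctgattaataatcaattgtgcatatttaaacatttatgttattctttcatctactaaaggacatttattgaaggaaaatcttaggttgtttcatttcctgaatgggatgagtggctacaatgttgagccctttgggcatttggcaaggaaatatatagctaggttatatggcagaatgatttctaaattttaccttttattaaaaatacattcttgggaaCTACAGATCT
G6pdx: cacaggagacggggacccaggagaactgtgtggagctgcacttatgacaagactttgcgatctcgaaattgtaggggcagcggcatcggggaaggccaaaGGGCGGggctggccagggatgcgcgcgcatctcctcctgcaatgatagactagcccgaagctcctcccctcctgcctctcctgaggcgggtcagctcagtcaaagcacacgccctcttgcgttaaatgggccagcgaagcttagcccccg
Ldhal6b: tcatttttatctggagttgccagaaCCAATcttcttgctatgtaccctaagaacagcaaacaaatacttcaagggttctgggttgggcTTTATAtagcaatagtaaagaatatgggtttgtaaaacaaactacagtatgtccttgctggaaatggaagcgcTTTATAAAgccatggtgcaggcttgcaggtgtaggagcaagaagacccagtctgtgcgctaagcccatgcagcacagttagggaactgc

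The G6pd2 window had 30.0% G and C and 0 CpG dinucleotides, and 7.9% of 32851 annotated windows had as few CpGs. The window of its parent G6pdx had 61.2% G and C and 15 CpGs, and 74.6% of windows had that number or fewer. The last 10 bases before the G6pd2 start and the first 17 after it formed a run of 27 bases that also lies in G6pdx from base 16 after its start. Only 1 of 32850 other windows shared a run that long with G6pd2, and it was that of G6pdx. From the start of that run to the end of the G6pdx window, 34 of 35 bases matched. The annotated start of G6pd2 thus lies inside sequence shared with the parent transcript, and the bases before it are AT-rich.

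The Ldhal6b window had 43.6% G and C and 2 CpGs, and 29.0% of windows had as few. Its longest run shared with the first annotated window of Ldha, Ldhb or Ldhc was 8 bases. That length was also reached by 24613 of 32850 other windows (74.9%). Shared runs were searched in 300 bases, which include 50 after the start, and further windows of Ldha and Ldhc were not compared. The TATA box TATAAA was found at bases −162 to −157 and −89 to −84 on the minus strand and at −87 to −82 on the plus strand, the last 2 matches overlapping, and CCAAT at −225 to −221. The G6pdx window held GGGCGG at −150 to −145, and the G6pd2 window held none of the motifs searched on both strands, which were the TATA, CCAAT and GC boxes as spelled above and the cAMP response element TGACGTCA. Of all windows, 12.4% held the TATA box, 33.8% the CCAAT box, 32.7% the GC box and 1.5% the cAMP response element. A match describes letters in these windows and no binding was measured.

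Some facts of the arrays bear on every value that follows. The 75th-percentile signal of an array lay between 143 and 255 units in the banded and between 178 and 206 units in the sham group, and no spot was saturated. All 8 arrays shared 1 slide with 2 rows of 4 places, read from spot positions, with the first banded mouse beside sham mice 2, 3 and 4 in row 1, and the first sham mouse beside banded mice 2, 3 and 4 in row 2. In 4 pairs of neighbouring arrays, the spread of log2 differences over 15117 bright probes was 1.16 to 1.59 times the noise between spots of 1 probe, against 3.12 to 6.29 times in the other 24 pairs. Of these pairs, banded 2 with banded 3 (1.59 times) and sham 3 with sham 4 (1.18 times) lie within a surgery group. Each was averaged and counted as 1 sample, which leaves 3 samples per group. The other close pairs, banded 1 with sham 2 (1.16 times) and banded 4 with sham 1 (1.40 times), join opposite groups. Of 28 marker genes of heart muscle, germ cells and other cell types, 0 could be paired with a probe, so the tissue on the labels was not checked against its markers.

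The first question was whether each probe stood above the background of its own array. The scanner software marks a spot as well above background by a strict flag and as significantly above its local background by a weaker one. A probe counted as detected on an array when over 50% of its spots, outlier spots left out, carried the strict flag. G6pd2 was detected on 8 of 8 arrays, as were 29491 of 60915 probes (48.4%). Ldhal6b was detected on 0 of 8, as were 17724 probes (29.1%). The G6pd2 probe thus gave a signal in every banded and every sham heart, and the Ldhal6b probe passed the detection rule in none.

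Every G6pd2 spot, 160 of 160, was well above background, including 6 spots left out of the averages as outliers. The mean signal of its spots was 279 units on banded 1, 171 on banded 2, 153 on banded 3 and 226 on banded 4. On the sham arrays it was 238, 228, 197 and 220 units in mouse order. Banded 1 was the brightest and banded 3 the dimmest, so the banded range spanned the sham range before scaling. Single spots lay between 133 and 349 units, and the spots of an array varied by 4.12% to 8.33% (coefficient of variation). The spot pixels were 9.65 to 14.9 times as bright as the ring of local background around them.

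The array carries 2 kinds of negative features, 308 negative-control spots and 15 negative probes of 20 spots each. On the negative-control spots the background-subtracted signal had medians from −6.37 to −4.29 units, while the processed signal had medians from 3.29 to 4.11 units. The processed signal therefore has a low positive floor, and a log2 distance to these spots is a distance to that floor. G6pd2 lay 5.96 ± 0.29 log2 units (SD, n = 6) above the median of the negative-control spots, and 6 of 6 samples were above it. On single arrays the distance was 6.30, 5.65, 5.22 and 6.09 in banded 1 to 4 and 6.09, 5.92, 5.73 and 6.06 in sham 1 to 4. An exact sign-flip permutation test over 6 samples gave p = 0.03125, the smallest it can give, and 0.0625 after Benjamini-Hochberg adjustment over 4 tests. With all 8 arrays counted separately the mean was 5.88 and the exact permutation p was 0.00781, again the smallest possible. With all 4 close pairs averaged, those of opposite groups too, 4 units remain, and the exact permutation p was 0.125, the smallest these can give. Since the reference is a floor, the test alone does not tell signal from background: 9 of 15 negative probes also lay above the negative-control median on all 8 arrays. On each of the 8 arrays, 0 of 15 negative probes were as bright as G6pd2.

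**Figure D1:**
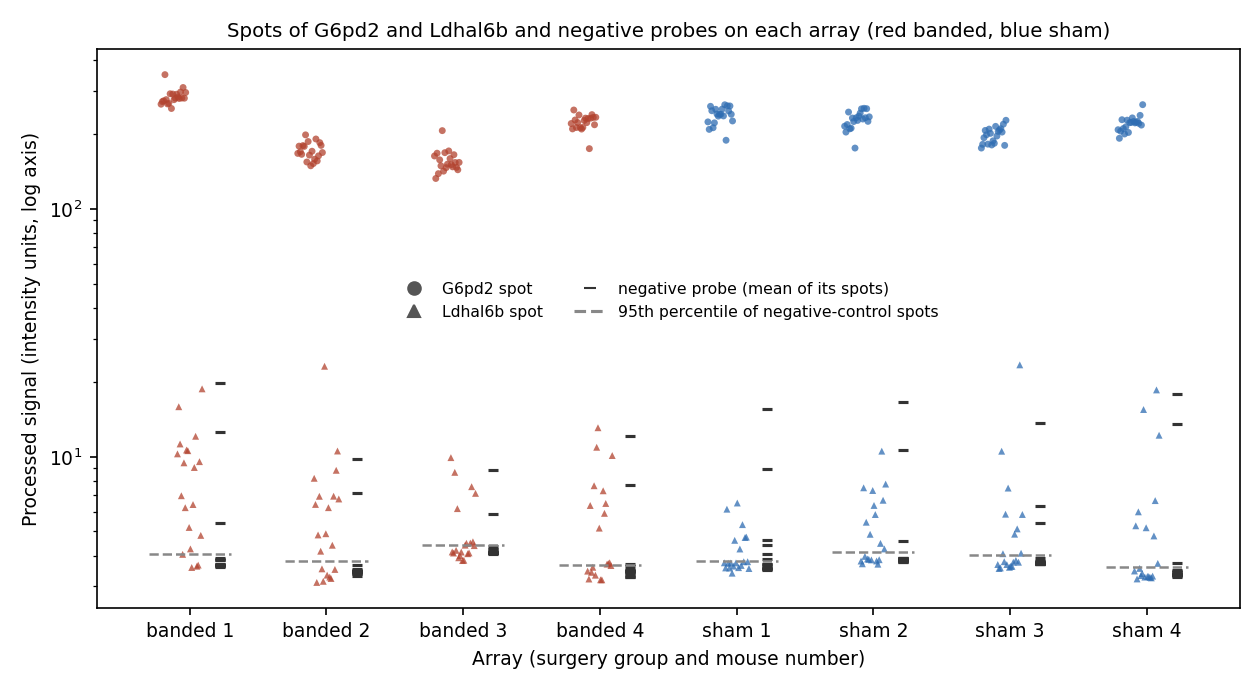
Processed signal (intensity units, log axis) of every G6pd2 spot (circles) and Ldhal6b spot (triangles) on each array, with outlier spots included, red for banded and blue for sham mice. Black dashes are the 15 negative probes and the grey dashed line is the 95th percentile of the negative-control spots. G6pd2 spots lay between 133 and 349 units on all arrays, and Ldhal6b spots between 3.11 and 23.5 units, among the negative probes. Brightness depends on the probe, so the levels of the genes are not compared.

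Which transcript fills the G6pd2 probe could not be settled. The sources used here do not give the sequence of the probe, and the upstream windows above show that G6pd2 begins in sequence nearly identical to the transcript of G6pdx, a housekeeping gene. A probe to shared sequence would also take up G6pdx RNA, and whether this one does was not tested. The values are therefore those of the G6pd2 probe. In RNA from a whole organ, fewer cells of a type and less RNA per cell cannot be told apart.

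The Ldhal6b probe was close to background, and its place depended on which negatives it was set against. Of its 160 spots, 4 were well above background, 1 each on banded 1, banded 2, sham 3 and sham 4, and only that on banded 1 was not an outlier spot. The weaker significance flag was carried by 83 of 160 spots. The mean signal was 7.37, 4.99, 4.89 and 4.80 units in banded 1 to 4 and 4.16, 5.08, 4.22 and 4.15 units in sham 1 to 4. Banded 1 was highest, and sham 2 lay above banded 2, 3 and 4, so the groups overlapped on this unscaled signal. Centred on the 75th percentile of each array, the log2 level was −5.11, −4.98, −4.87 and −5.18 in banded 1 to 4. In sham 1 to 4 it was −5.42, −5.34, −5.47 and −5.62, below every banded array. Near the floor this level also moves with the 75th percentile of the array. In limma with no filter on background, 0 of 60915 probes passed an adjusted p of 0.05. The highest Ldhal6b spot reached 23.5 units, and of the 20 places where its probe is printed, 1 was well above background on more than 1 array.

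Ldhal6b lay 0.49 ± 0.30 log2 units (SD, n = 6) above the median of the negative-control spots and was above it in 6 of 6 samples. The exact permutation p was 0.03125, the smallest possible, and 0.0625 after adjustment over 4 tests. This p does not show Ldhal6b above background, because the 9 negative probes that also lay above that median on all 8 arrays would reach it as well. Over the 8 arrays the mean distance was 0.45 for Ldhal6b, and 2 of 15 negative probes had a larger one. On single arrays it was 1.06, 0.55, 0.25 and 0.53 in banded 1 to 4 and 0.25, 0.43, 0.18 and 0.33 in sham 1 to 4. In every case the mean exceeded the 95th percentile of the negative-control spots, by 0.35 log2 units on average. Before flooring, the median background-subtracted signal of Ldhal6b was 2.13 to 8.16 units over the 8 arrays. That of the negative probes was −2.21 to −0.023 units, so these values did not overlap.

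The 15 negative probes gave a different reading from the negative-control spots. On each array, 2 to 4 of them were at or above Ldhal6b. Of these, MM9NEGATIVE007 and MM9NEGATIVE017 were so on 8 of 8 arrays, with mean signals of 5.89 to 13.5 and 8.87 to 19.8 units and with 17 and 50 spots well above background over all arrays. The other negative probes that reached it were MM9NEGATIVE016 on 2 arrays and MM9NEGATIVE001 on 1. Against the 95th percentile of all negative-probe spots, the mean distance of Ldhal6b was −1.47 log2 units, and it exceeded that percentile on 0 of 8 arrays. Ldhal6b was thus above most probes meant to bind nothing and below the brightest of them on every array.

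The share of Ldhal6b spots with the significance flag was 85.0% (17 of 20) on banded 1, 63.2% (12 of 19) on banded 2, 36.8% (7 of 19) on banded 3 and 50% (9 of 18) on banded 4. On the sham arrays it was 50% (9 of 18), 63.2% (12 of 19), 29.4% (5 of 17) and 33.3% (6 of 18) in mouse order. Between 12.7% and 26.7% of the spots of the negative probes carried the flag, and at most 0.997% of the negative-control spots. On each array the share for Ldhal6b was higher than for the negative probes. The pixels of its spots were 2.32 to 2.61 times as bright as the local background, but much of that was shared with the negatives: the median pixel signal was 48.5 to 57.0 units for Ldhal6b, 43.0 to 51.0 for the negative probes and 39.0 to 44.0 for the negative-control spots. By this flag on over 50% of spots, Ldhal6b would count as detected on 3 arrays, banded 1, banded 2 and sham 2.

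**Figure D2:**
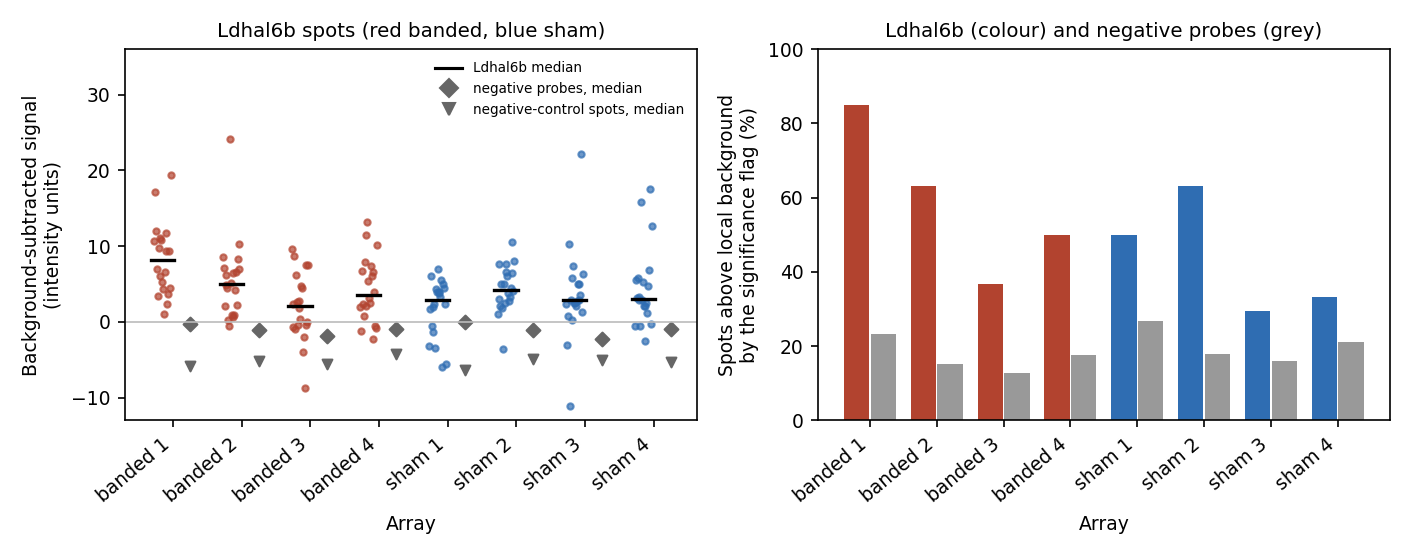
Left, background-subtracted signal (intensity units) of each Ldhal6b spot by array, with the Ldhal6b median as a black line and the medians of the negative probes (diamonds) and negative-control spots (triangles). Right, the percentage of Ldhal6b spots (colour) and of negative-probe spots (grey) with the significance flag. The Ldhal6b medians, 2.13 to 8.16 units, lay above the median of each kind of negative, taken over all its spots, on all 8 arrays. Single negative probes are not shown. The flagged share of Ldhal6b spots ran from 29.4% to 85.0%.

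The second question was whether either probe differed between banded and sham hearts. For G6pd2, centring each array on its 75th percentile gave a log2 level of 0.13, 0.12, 0.10 and 0.38 in banded 1 to 4, and in sham 1 to 4 of 0.42, 0.15, 0.08 and 0.12. In each group 1 mouse was high and the other 3 lay close together, and the groups overlapped. The banded mean was 0.21 ± 0.15 (SD, n = 3). The sham mean was 0.22 ± 0.17 (SD, n = 3). The difference, banded minus sham, was −0.016 (SE 0.19, 95% confidence interval −0.45 to 0.42, limma adjusted p = 0.996), a ratio of 0.989. The interval still holds differences of 0.42 log2 units in the banded direction and 0.45 in the other, and the arrays do not resolve differences within it.

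Over the whole table, 0 of 35782 probes tested (0%) passed an adjusted p of 0.05 in limma with close arrays averaged, and 726 had an unadjusted p under 0.05. With all 8 arrays counted separately, 0 (0%) passed in limma and 2533 had an unadjusted p under 0.05. In limma with array quality weights 3004 passed, and without both banded 1 and sham 1, the arrays that keep surgery apart from slide row, 1002 passed. With all 8 arrays counted separately, G6pd2 stood at −0.0090 (SE 0.15, 95% confidence interval −0.34 to 0.32, limma adjusted p = 0.983). Of the tested probes, 95.2% had a log2 difference of larger size than G6pd2 with close arrays averaged. The sign of the G6pd2 estimate changed with the arrays kept. It was 0.021 without banded 1, 0.084 without sham 1 and −0.10 without banded 4. It was 0.12 without both banded 1 and sham 1, and 0.038 with array quality weights.

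The distance of G6pd2 to the negative-control spots gave the same comparison on another scale. Banded hearts had a mean of 5.94 ± 0.45 (SD, n = 3). Sham hearts had 5.97 ± 0.11 (SD, n = 3). The difference was −0.025 log2 units (exact permutation p = 0.9, adjusted p = 0.9 over 4 tests, smallest possible p 0.1). Within slide row 1 it was 0.40 and within row 2 −0.44, with 1 array on one side each, so the small pooled value lies between opposite differences. The estimate turned to 0.047 without banded 3, 0.037 without sham 1 and 0.031 without sham 4.

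Ldhal6b was not well above background in either group, so no fold of its RNA is given. What was compared is the distance of the probe to the floor of each array, which is not a ratio of RNA levels. The banded hearts lay 0.66 ± 0.35 (SD, n = 3) above the negative-control spots. The sham hearts lay 0.31 ± 0.10 (SD, n = 3) above them. The difference of 0.35 log2 units had an exact permutation p of 0.2 and an adjusted p of 0.267 over 4 tests, where 3 against 3 cannot go below 0.1. Banded 1 carried much of it, and without that array the difference was 0.16. Within slide row 1, where banded 1 is the only banded array, it was 0.74, and within row 2, where sham 1 is the only sham array, it was 0.19. The 8 arrays with slide row as a block gave 0.47, with an exact permutation p of 0.125. On the background-subtracted signal, which has no floor, banded exceeded sham by 1.45 units (exact permutation p = 0.7). The difference was 0.039 on pixel signals (exact permutation p = 0.5), 0.033 after normexp (exact permutation p = 0.4) and 0.13 without both banded 1 and sham 1 (exact permutation p = 0.667). With the 95th percentile of the negative probes as reference the value became 0.61, with an exact permutation p of 0.1, the lowest that 3 against 3 allows. Its size thus ran from 0.033 to 0.74 log2 units over these settings and passed no threshold. Banded 1 was also the array with the highest 75th percentile, 255 units, and its part in the result was not tested.

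**Figure D3:**
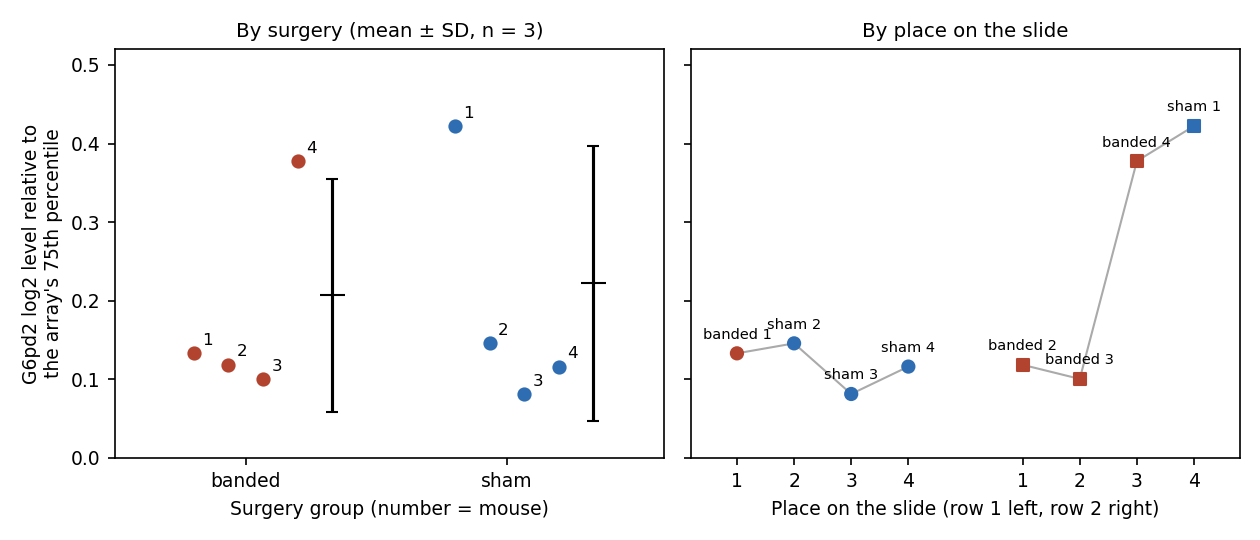
Level of G6pd2 in log2 units, with each array centred on its 75th percentile. Left, by surgery, numbered by mouse, with the mean and SD of 3 samples per group as bars. Right, the same values by place on the slide, row 1 as circles and row 2 as squares, red for banded and blue for sham. Banded 4 (0.38) and sham 1 (0.42) are neighbours in row 2, and the other 6 arrays lie between 0.08 and 0.15.

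Place on the slide was the last grouping examined for G6pd2. Its highest values, 0.38 in banded 4 and 0.42 in sham 1, came from opposite surgery groups at neighbouring places 3 and 4 of row 2. The other arrays lay between 0.08 and 0.15, whatever their group. Within the 4 close pairs, G6pd2 differed by 0.013 (banded 1 and sham 2), 0.018 (banded 2 and banded 3), 0.035 (sham 3 and sham 4) and 0.045 (banded 4 and sham 1). The rows as a whole differed by 0.14, row 2 minus row 1 (95% confidence interval −0.13 to 0.40, limma adjusted p = 0.476). Within row 1, banded minus sham was 0.019, and within row 2 it was −0.22, with 1 array on one side each. With the row in the model the surgery difference was −0.10 (95% confidence interval −0.42 to 0.22, limma adjusted p = 0.859). With neighbouring pairs as blocks it was −0.029 (limma adjusted p = 0.9996). Only banded 1 with sham 2 and banded 4 with sham 1 inform that estimate, as the other pairs lie within a surgery group.

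A control for RNA quality and labelling was set beside these values. Mouse Pgk1, a glycolytic enzyme, has control probes to the 3′ and 5′ parts of its transcript. Their log2 difference was 4.39 in both banded 4 and sham 1, where G6pd2 was high. It was 4.53 and 4.51 in banded 2 and banded 3, in the same row, and 3.85 to 4.24 in row 1. G6pd2 was low on arrays at both ends of this range. For the Gapdh control probes the same log2 difference ran from 0.34 (banded 1) to 0.67 (banded 2), with 0.64 in banded 4 and 0.62 in sham 1. The part of RNA quality in the G6pd2 level was not tested.

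**Figure D4:**
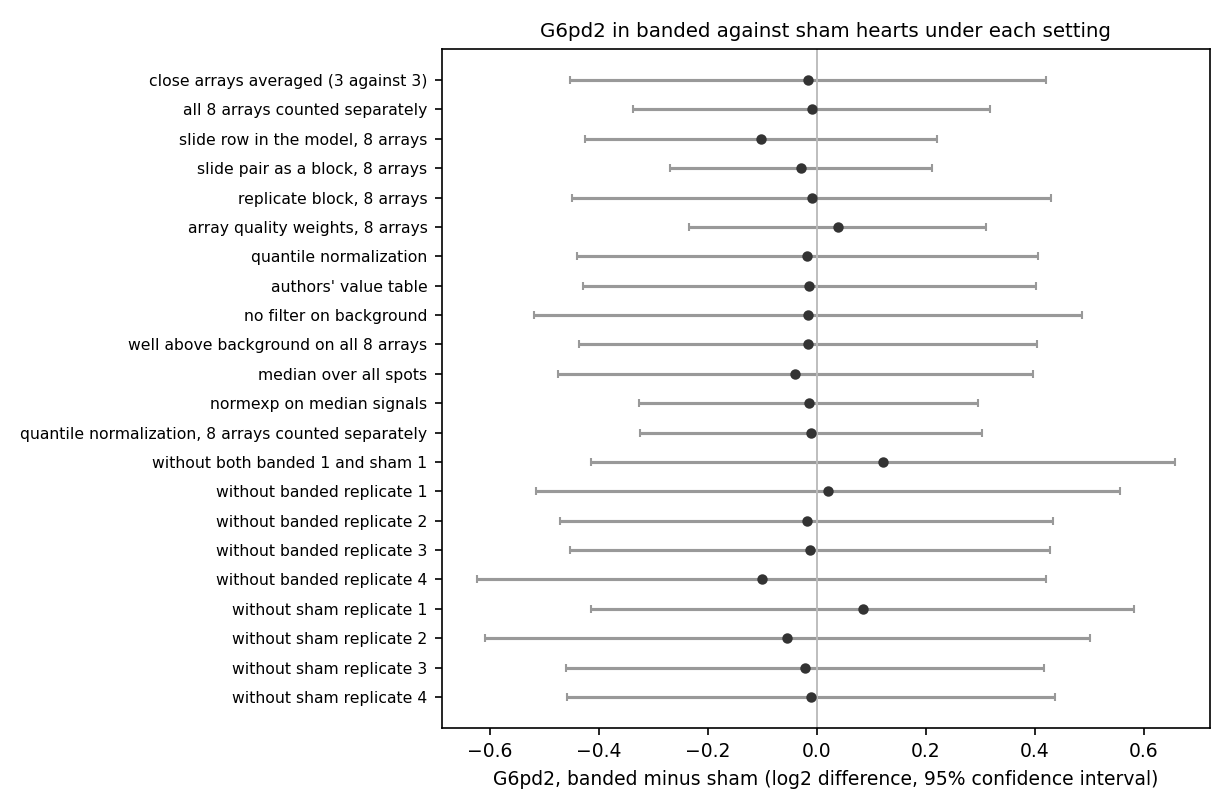
Log2 difference in G6pd2, banded minus sham, with its 95% confidence interval (bars), under each way of processing and leaving out arrays. The estimates run from −0.10 to 0.12 and every interval includes 0.

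G6pd2 was among the steadier of the named genes over the 8 arrays. With arrays centred on the 75th percentile its SD was 0.134 log2 units and its range 0.341, and Nono (SD 0.0485) and Tbp (0.109) varied less among the 15. After quantile normalization its SD was 0.129, and Gapdh (0.0697), Nono (0.110) and Tbp (0.117) varied less. Likeness to G6pd2 was measured by the root mean square difference of the deviations from each gene's mean over the 8 arrays. The nearest profiles were those of Nono (0.110), which encodes an RNA-binding protein of nuclear paraspeckles, Tbp (0.143), the TATA-binding protein, and Hprt (0.240), an enzyme of purine salvage. Nono ran from 4.52 to 4.66 log2 units relative to the 75th percentile, Tbp from 1.34 to 1.64 and Hprt from 6.03 to 6.69. Nono hardly varied, and on this measure a flat profile scores well. None of these levels can be set against that of another probe.

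A list held 29 genes of the lactate dehydrogenase and glucose-6-phosphate dehydrogenase families, the pentose phosphate pathway, glycolysis and other testis-type isoforms. Pgk1 among them had control probes, whose levels were not compared between the groups. Of the 29 genes, 1 could be paired with a noncontrol probe, and it passed the test in neither direction. This was Gapdh, which carries out the oxidation step of glycolysis. Its centred log2 level was 9.88, 10.55, 10.60 and 10.30 in banded 1 to 4 and 10.25, 10.01, 10.19 and 10.04 in sham 1 to 4, with the groups overlapping. The difference was 0.13 (SE 0.22, 95% confidence interval −0.39 to 0.65, limma adjusted p = 0.995). The parent gene G6pdx and the lactate dehydrogenases Ldha and Ldhb were not analysed here, as the files used here do not pair them with a probe.

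The authors' deposited table gave the same order of arrays for G6pd2 at its top. Its log2 values in the authors' deposited table were 7.69, 7.65, 7.65 and 7.88 in banded 1 to 4 and 7.95, 7.69, 7.62 and 7.65 in sham 1 to 4, with sham 1 and banded 4 again highest. For Ldhal6b the authors' deposited table held 2.52, 2.83, 3.02 and 2.79 in banded 1 to 4 and 2.35, 2.55, 2.74 and 2.48 in sham 1 to 4. Banded 1, the highest array in processed signal, was the lowest banded array there, and banded 3 was the highest. The order of the Ldhal6b values over arrays thus depended on how the arrays were scaled.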

How the data were processed

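Heart RNA of 4 banded and 4 sham mice was measured on 8 arrays, grouped by the labels. Per the file headers, Agilent Feature Extraction 11.0.1.1 wrote a background-subtracted and detrended intensity for each spot, not scaled between arrays, and flags of 0 or 1 for spots above background, saturated or outlying. The authors' deposited table holds log2 values for 60902 probes, with their making not given in the sources used here. Set beside the scanner intensities, its log2-scale slopes were 0.984 to 1.02, its correlations at least 0.9999 and its column medians 4.92. It served as an alternative. The steps that made it stay unknown. Over arrays, the SD of Gapdh was 0.0697 in it, 0.0697 after quantile normalization and 0.253 with 75th-percentile centring. For Ldhal6b these were 0.220, 0.275 and 0.256. For Gapdh it thus lay near the quantile setting, so these alternatives may not be independent.

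Log2 processed intensity was averaged over spots that were not outliers and centred on each array's 75th percentile. Probes detected on at least 4 arrays (35782) were compared with limma 3.58.1 in R 4.3.3, and p-values were adjusted over all of them by Benjamini-Hochberg, with a threshold of 0.05. Distances to negatives were compared with two-sided exact permutation tests in Python 3.11.15 with numpy 2.4.6, pandas 2.3.3 and scipy 1.17.1. Input was read with data.table (version 1.17.8), and plots were drawn with matplotlib 3.10.9. Mean signals are geometric means over spots. Nothing says whether RNA was processed separately beyond the mouse number, so p-values measure the spread between these samples, and the number of arrays limits the precision.

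The genes and lists were chosen with earlier results of these data known. The genes named were the pair under study and the 3 genes nearest to G6pd2 among those printed as 20 spots. Every listed pathway gene paired with a noncontrol probe was named too. Alternatives covered scaling, background, spot averaging, negatives, detection rule, blocks and arrays left out. Normexp (offset 50) was planned on mean spot signals, which the files used here do not hold, so median spot signals replaced them. That alternative, unscaled pixel signals, linear units, the 95th percentile of the negative probes, quantile normalization with 8 separate arrays, averaging all 4 close pairs and leaving out both banded 1 and sham 1 were chosen after seeing the data. All 15 accessions matched RefSeq names, and all 8 mouse numbers came from the labels. Same-numbered arrays of opposite groups did not deviate together, with correlations from −0.65 to −0.05 over 35684 probes.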

Additional observations from a re-analysis of the deposited data

Results flagged for a closer look

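Banded 4 stood apart from the other banded arrays in the G6pd2 level, at 0.378 log2 units relative to the 75th percentile, where the nearest banded array, banded 1, was at 0.133. The gap was 0.883 of the range of the group, above the 95% critical value of Dixon's ratio for 4 samples. Here banded 2 and banded 3 counted separately, although they are close arrays that the main tests averaged. Whether banded 4 stands apart with that pair averaged was not tested. Of 14 sets of 4 arrays examined in this way, 1 had an array apart, and chance gives about 1 in 20. Sham 1, at 0.422, had a ratio of 0.811 in its own group, below the critical value.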

How the results depend on the processing

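Of 126 recomputed values for 8 results, 99 kept their direction and their side of the threshold, or for counts stayed near the reported one. For the exact tests this tally uses unadjusted p. The G6pd2 difference between banded and sham hearts stayed past no threshold throughout, but its sign turned with array quality weights (0.0383), without both banded 1 and sham 1 (0.121) and over arrays left out in turn (−0.101 to 0.0845). The limma count of probes past the threshold went from 0 to 3004 with array weights and to 1002 without both of these arrays, the only ones that keep surgery apart from slide row. With arrays left out in turn, the distance to the negative-control spots was 5.89 to 5.99 for G6pd2 and 0.374 to 0.535 for Ldhal6b. Without both arrays it was 5.84 and 0.405, and with all 4 close pairs averaged 5.88 and 0.449. In 5 samples an exact permutation p cannot go below 0.0625 and in 4 not below 0.125, so these cannot decide. The reported tests over 6 samples also had an adjusted p of 0.0625. The banded minus sham difference in the G6pd2 distance was 0.0077 on pixel signals and 0.234 against the 95th percentile of the negative probes, and −0.204 to 0.0469 over arrays left out in turn; the cause was not tested. That of Ldhal6b kept its sign under every alternative run but was as low as 0.033. Against that percentile the Ldhal6b distance was −1.47, a higher bar by construction. Ldhal6b counted as detected on 1 array with at least 1 spot well above background, on 3 by the significance flag and on 8 against the 95th percentile of the negative-control spots. Mouse numbers are shared between groups but did not pair the arrays: with the replicate block the G6pd2 difference was −0.0090 (limma adjusted p = 0.990), with 0 probes past the threshold and 1424 at an unadjusted p under 0.05, and the block changed no call. The alternatives that needed mean spot signals were not run, because the files used here do not hold them. Near the floor, signal over background limits every Ldhal6b value.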
